A study of Homo sapiens with 4 samples.

Results

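The mitochondrial ribosomal protein genes were taken as every listed gene whose symbol is MRPL or MRPS followed by a number and at most 1 further letter. They were 71 of the 15902 genes in the files, with 266 of 142206 introns. RNA came from SUM159, a cell line established from a human triple-negative breast cancer, treated for 12 hours with the spliceosome inhibitor H3B-8800 or with its solvent DMSO, in biological duplicate. In all 4 libraries the RNA was polyadenylated, came from the cytoplasmic fraction, and was made into strand-specific libraries. For each intron the reads lying in it (intronic reads) were deposited, and the reads spanning it (called spliced reads here) could be computed.

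Mitochondrial ribosomes translate the few proteins that mitochondrial DNA encodes, all of them subunits of the respiratory chain complexes or of ATP synthase. The ribosomal RNAs are made inside the organelle, whereas every protein of the large (MRPL) and small (MRPS) subunit is encoded in the nucleus, spliced there, translated in the cytosol and imported. Some of these proteins descend from bacterial ribosomal proteins, and others were added during the evolution of mitochondria. H3B-8800 binds the SF3B complex, which recognises the branch point of an intron early in spliceosome assembly.

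Library totals ran from 58000000 to 64000000 reads. The mesenchymal marker VIM stood at 4924 to 6075 CPM (spliced reads scaled to library size by TMM), and CAV1, FN1, AXL and CD44 were present in all 4 libraries. The hormone receptor genes ESR1 and PGR had 0 spliced reads, and CDH1, EPCAM and KRT19 stood at no more than 1.04 CPM. ERBB2, KRT8 and KRT18, also on the receptor and luminal list, were present. In RNA from a whole culture, fewer cells that express a gene and less RNA per cell cannot be told apart.

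Few introns were listed for these genes. The median member had 3 listed introns against 6 over all genes, 12 members had a single listed intron, and MRPS5 had the most, 11. The list leaves out introns of some genes. In MRPS27, listed introns 2 and 3 lie at chr5:72295590-72297631 and chr5:72234198-72238013, too far apart for 1 exon between them. Introns are counted and numbered here among those listed, so first, last and single refer to the list. The median member intron was 1588 bp long, against 1459 bp over all introns. Of the 266 introns, 253 lay within the coding region, 12 in a 5′ UTR and 1 in a 3′ UTR. An annotated exon of some transcript overlapped many of them, so that 51.1% of member introns held none, against 67.9% of all introns, and reads in an overlapped intron can come from such a transcript.

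Short introns are shown whole because their 5′ splice site, pyrimidine tract and 3′ splice site can be seen at once. The first 4 had a raised intronic-to-spliced ratio with H3B-8800 and the fifth did not pass the test. All come from GENCODE release 29 transcripts that contain the intron, on hg38, 5′ to 3′ on the strand of the gene, and capitals mark the first and last 2 bases. They lie at chr19:10252311-10252396 (+), chr19:10258523-10258608 (+), chr10:100986976-100987089 (-), chr15:88467783-88467907 (+) and chr2:74472253-74472357 (-).
MRPL4 intron 1: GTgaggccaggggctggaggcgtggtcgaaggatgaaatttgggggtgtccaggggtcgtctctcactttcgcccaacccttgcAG
MRPL4 intron 7: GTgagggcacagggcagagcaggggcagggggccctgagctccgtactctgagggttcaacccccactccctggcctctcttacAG
MRPL43 intron 2: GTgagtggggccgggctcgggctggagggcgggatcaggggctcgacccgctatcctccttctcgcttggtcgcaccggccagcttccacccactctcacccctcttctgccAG
MRPS11 intron 1: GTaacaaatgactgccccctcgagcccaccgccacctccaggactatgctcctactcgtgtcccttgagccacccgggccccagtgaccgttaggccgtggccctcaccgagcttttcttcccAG
MRPL53 intron 2: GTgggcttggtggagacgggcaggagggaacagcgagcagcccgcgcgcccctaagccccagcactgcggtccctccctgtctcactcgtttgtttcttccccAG

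All 5 introns begin with GT and end with AG. Pyrimidines made up 75%, 80%, 85% and 80% of the 20 bases before the AG in the 4 raised introns and 85% in the intron of MRPL53. MRPL4 encodes a large-subunit protein with a bacterial counterpart, and its intron 1 had 39 and 48 intronic reads after H3B-8800 against 5 and 10 after DMSO. On the log2 scale its ratio rose by 2.96 (SE 0.47; adjusted p = 0.000273 after Benjamini-Hochberg, edgeR's quasi-likelihood test). MRPL4 intron 7 had 54 and 98 intronic reads against 24 and 19, a rise of 2.57 (SE 0.37). In MRPL43 intron 2 the change was 1.91 (SE 0.55), which did not pass without H3B-8800 replicate 1 (1.74) or without DMSO replicate 1 (1.34). In MRPS11 intron 1 it was 2.42 (SE 0.53). MRPL53 intron 2 had 22 and 31 intronic reads against 8 and 20, and its change of 0.97 did not pass (SE 0.46; adjusted p = 0.0871, edgeR with Benjamini-Hochberg), although without DMSO replicate 2 it was 1.67 and passed. In MRPL4 intron 1 and MRPL53 intron 2 both H3B-8800 libraries had more intronic reads than both DMSO libraries. MRPL4 intron 1 overlaps an annotated exon on the opposite strand, and all 5 overlap one on their own strand.

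The comparison asked what inhibition of splicing did to the spliced and the intron-containing RNA of these genes in the cytoplasm. Spliced RNA of the members moved more often down than up. All 71 members passed the filter of a mean of at least 1 CPM. Spliced reads summed per gene were lower with H3B-8800 in 33 members and higher in 13, and 25 did not pass (edgeR, threshold of 0.05 on the p adjusted after Benjamini-Hochberg). Over all 9468 genes tested, 32.7% were lower and 32.8% higher, against 46.5% and 18.3% of the members. On the log2 scale the median change was -0.19 over the members and 0.01 over all genes. Member changes ranged from -1.38 to 0.93. A fall of at least 2-fold was seen in 3 members, against 10.7% of all genes tested, and a rise of that size in 0, against 6.42%. In 58 members the CPM values of the groups did not overlap, where 82.5% of all genes tested had groups that did not.

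These values are relative to the other spliced RNA of a library. Scaled to library totals instead of by TMM, the median of all genes moved to -0.16 and that of the members to -0.37, with 8 members higher and 48 lower. On that scale 23.6% of all genes tested were higher and 41.5% lower. Rises then made up 14.3% of the members' calls and 36.2% of the calls over all genes, where under TMM scaling they made up 28.3% and 50%.

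**Figure D1:**
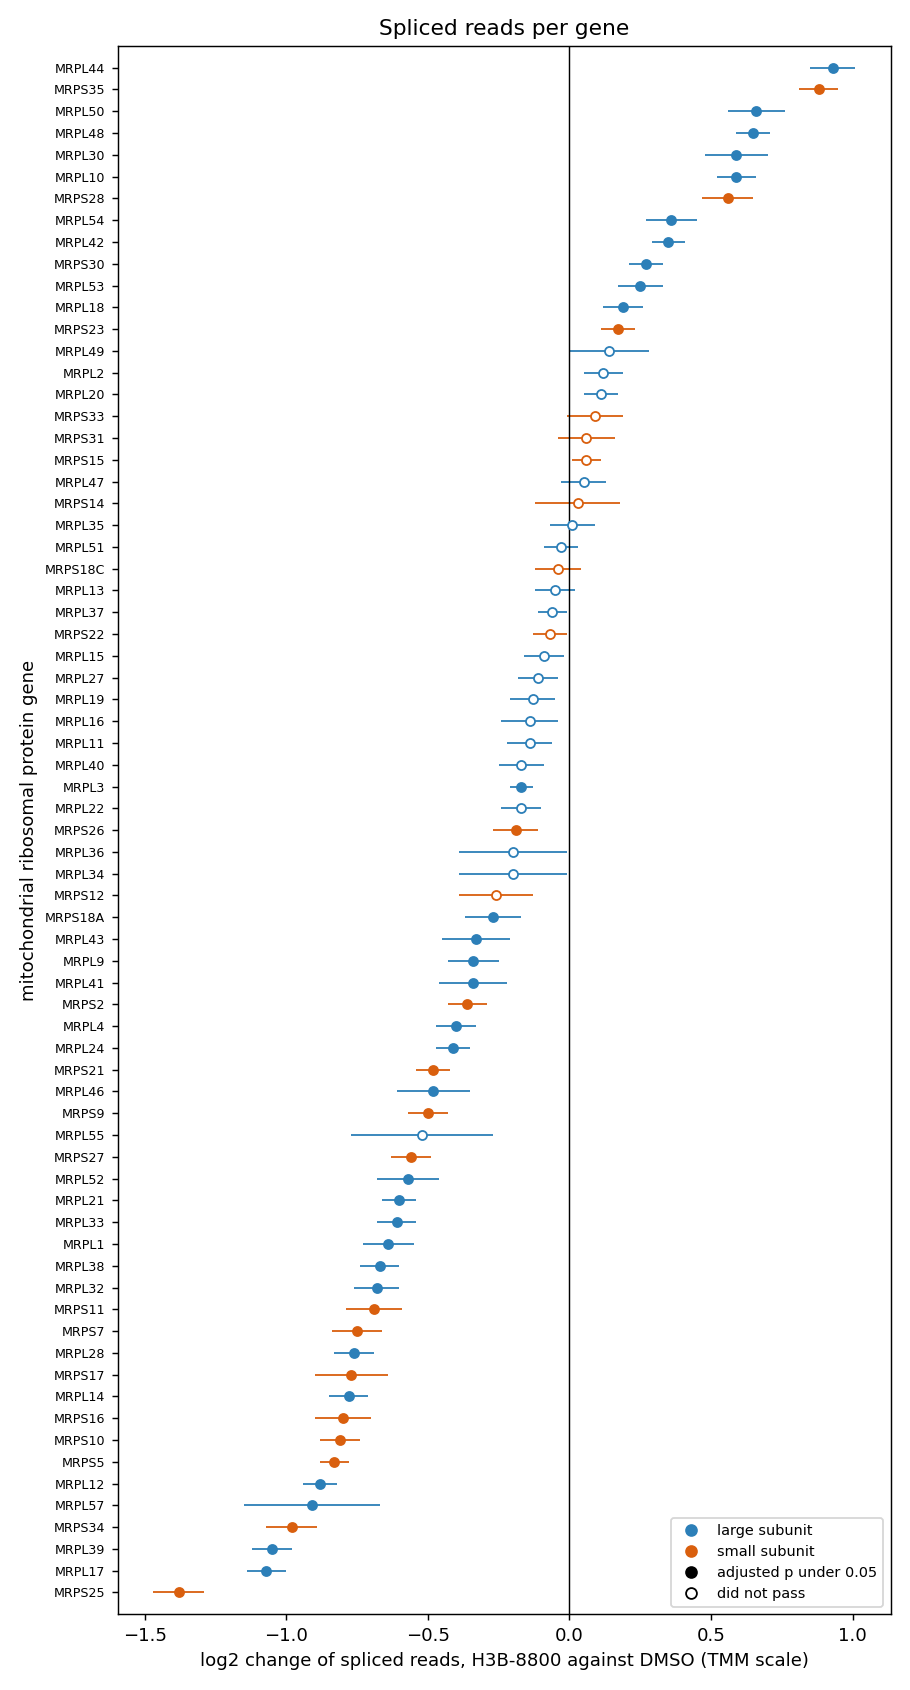
Log2 change of spliced reads (x axis, TMM scale, H3B-8800 against DMSO) for each of the 71 genes (y axis), coloured by ribosomal subunit; bars are 1 SE and filled points passed the test. Changes run from -1.38 in MRPS25 to 0.93 in MRPL44, with 33 filled points left of 0 and 13 right of it.

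In the small subunit, 13 of 23 members fell and 3 rose, with a median change of -0.36. In the large subunit, which includes MRPS18A and MRPS30 by the place of their proteins, 20 of 48 fell and 10 rose, with a median of -0.17. Among the 40 members with a bacterial counterpart, 21 fell and 3 rose, with a median of -0.30. Among the 31 members without one, 12 fell and 10 rose, with a median of -0.06. The rises of the small subunit were MRPS35, MRPS28 and MRPS23, which are not on the list with a counterpart, while 9 of its 13 members on that list fell and 0 rose. The rise of MRPS23 was small (0.17, SE 0.06; edgeR, adjusted p = 0.032 after Benjamini-Hochberg). Library totals as the scale gave -0.01. The rise also did not pass in DESeq2 (0.16), without H3B-8800 replicate 1 (0.12), DMSO replicate 1 (0.17) or DMSO replicate 2 (0.15), without its most-read intron (0.15), or in introns without an annotated exon (0.18). Counting MRPL47, MRPL55 and MRPS28 among those with a counterpart, as other nomenclatures do, gave 21 falls and 4 rises of 43 against 12 and 9 of 28. The differences between these groups were not tested.

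MRPS25, a small-subunit protein without a bacterial counterpart, had 24.6 and 27.1 CPM with H3B-8800 against 68.0 and 66.9 CPM with DMSO. On the log2 scale it fell by 1.38, the largest fall of the members (SE 0.09; edgeR, Benjamini-Hochberg adjusted p = 1.86e-08). The H3B-8800 libraries lay far below the DMSO libraries, which were close to each other.

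The next falls were in large-subunit proteins. MRPL17, with a bacterial counterpart, had 52.3 and 51.6 CPM against 111.2 and 107.3 CPM and fell by 1.07 (SE 0.07; edgeR, Benjamini-Hochberg adjusted p = 2.92e-08). MRPL39, a protein related to threonyl-tRNA synthetase, had 66.0 and 63.8 CPM against 141.4 and 127.9 CPM and fell by 1.05 (SE 0.07). The H3B-8800 values of both genes were within 5 CPM of each other, and both groups stood well apart. MRPL12, which binds as several copies to the stalk of the large subunit where translation factors dock, had 142.7 and 149.9 CPM against 277.7 and 260.7 CPM, and fell by 0.88 (SE 0.06). MRPL14, a bacterial-type protein of the face that meets the small subunit, fell by 0.78 (SE 0.07). MRPL57 was the member with the lowest counts of these, at 3.32 and 4.11 CPM against 7.03 and 6.96 CPM, and fell by 0.91 with a wider error (SE 0.24; edgeR, Benjamini-Hochberg adjusted p = 0.00457).

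Further falls were in the small subunit. MRPS34, a mitochondrial addition, had 43.6 and 44.6 CPM against 79.7 and 94.7 CPM and fell by 0.98 (SE 0.09). MRPS5 had 150.5 and 152.4 CPM against 262.4 and 277.1 CPM and fell by 0.83 (SE 0.05). MRPS10 fell by 0.81 (SE 0.07) and MRPS16 by 0.80 (SE 0.10), and these 3, MRPS5 included, have bacterial counterparts. The 2 groups did not overlap in any of these genes.

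The largest rise was in MRPL44, a large-subunit protein related to RNase III enzymes. It had 70.3 and 72.5 CPM with H3B-8800 against 35.6 and 39.2 CPM with DMSO, a rise of 0.93 (SE 0.08; edgeR, Benjamini-Hochberg adjusted p = 3.86e-07). MRPS35, of the small subunit, had 122.2 and 123.8 CPM against 66.9 and 66.7 CPM, a rise of 0.88 (SE 0.07). The groups of both genes were separated by far more than their replicates differed.

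Other rises were smaller, and all of those given here but MRPS28 were of the large subunit. MRPL50 had 32.2 and 31.8 CPM against 20.9 and 19.6 CPM (0.66, SE 0.10), and MRPL48 had 189.0 and 171.3 CPM against 116.7 and 112.3 CPM (0.65, SE 0.06). MRPL10, the protein that holds MRPL12 on the stalk, had 107.3 and 103.9 CPM against 69.0 and 71.1 CPM, a rise of 0.59 (SE 0.07). MRPL10 and its partner MRPL12 thus moved in opposite directions, both past the threshold. MRPL30 rose by 0.59 with replicates further apart, at 76.3 and 59.1 CPM against 45.6 and 44.5 CPM (SE 0.11). MRPS28 rose by 0.56 (SE 0.09), MRPL54 by 0.36 (SE 0.09), MRPL42 by 0.35 (SE 0.06) and MRPS30 by 0.27 (SE 0.06). The rises of MRPL54 and MRPS30 did not pass when scaled to library totals, where they were 0.18 and 0.09, nor with the most-read intron of each gene left out, where they were 0.28 and 0.07. Without DMSO replicate 2 the rise of MRPL54 was 0.27 and did not pass.

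**Figure D2:**
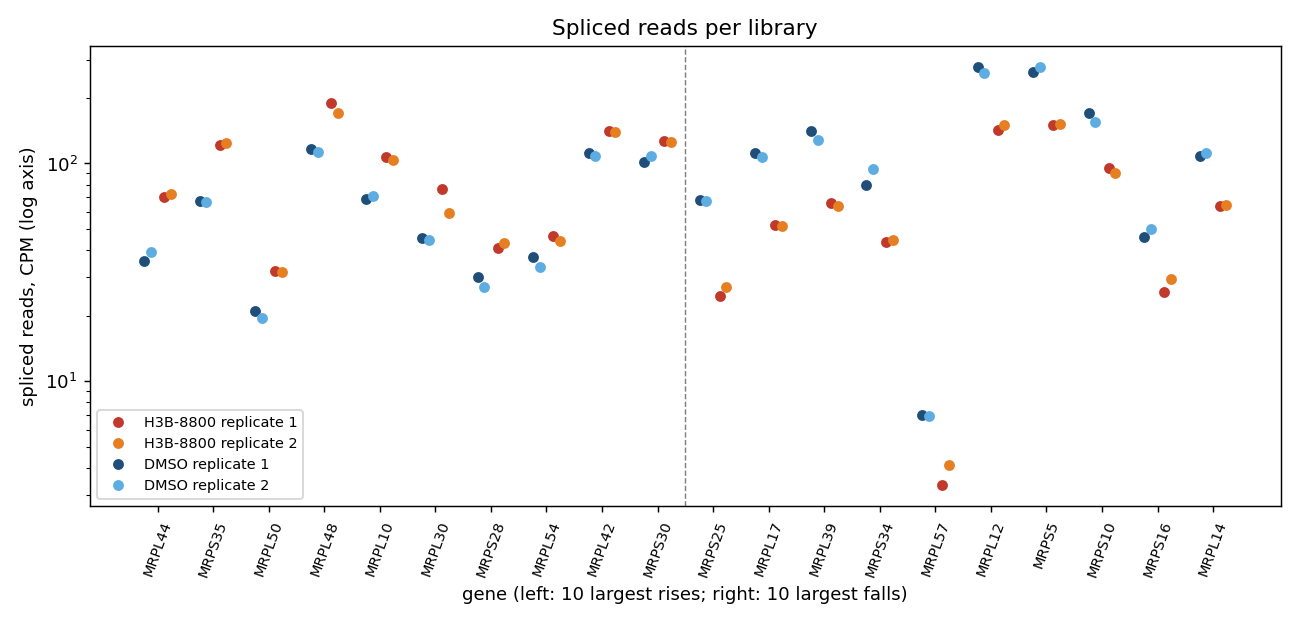
Spliced reads in CPM (y axis, log scale) in each library for the 10 largest rises and, right of the dashed line, the 10 largest falls (x axis); each point is 1 library. MRPL44 stands at 70.3 and 72.5 CPM against 35.6 and 39.2 CPM, and MRPS25 at 24.6 and 27.1 CPM against 68.0 and 66.9 CPM; no gene shown has overlapping groups.

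The 25 members that did not pass included MRPL51, at 129.8 and 128.2 CPM against 128.1 and 135.1 CPM (-0.03, SE 0.06), and MRPL20, at 205.6 and 188.8 CPM against 188.1 and 177.5 CPM (0.11, SE 0.06). On library totals MRPL51 passed as lower (-0.21), and MRPL20 was at -0.07. They were MRPL2, MRPL11, MRPL13, MRPL15, MRPL16, MRPL19, MRPL20, MRPL22, MRPL27, MRPL34, MRPL35, MRPL36, MRPL37, MRPL40, MRPL47, MRPL49, MRPL51, MRPL55, MRPS12, MRPS14, MRPS15, MRPS18C, MRPS22, MRPS31 and MRPS33.

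To compare levels between genes, the summed CPM were divided by the number of listed introns, since a gene with more of them offers more junctions to read. On this scale the highest members in DMSO were MRPS21, at 120.1 ± 2.3 CPM per intron (SD, n = 2), and MRPL33, at 119.7 ± 3.1, which did not differ beyond that spread. MRPS34 followed at 87.2 ± 11. These 3 genes have a single listed intron, so their level rests on 1 junction. MRPL37 stood at 73.9 ± 0.84, but its intron 4 held 66% of its spliced reads in DMSO, and the median of its 6 introns was 33.1 CPM. The lowest were MRPL49, at 5.40 ± 0.69, MRPS31, at 5.93 ± 0.33, and MRPL55, at 5.98 ± 0.88 CPM per intron, whose spreads overlap. With H3B-8800, MRPS21 stood at 86.2 and MRPL33 at 78.3 CPM per intron.

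Introns of 1 gene mostly moved together in spliced reads. In 59 members, at least 2 introns had a mean of at least 20 spliced reads, 254 introns in all. The median distance between the highest and the lowest intron of a gene was 0.35 on the log2 scale. All introns had the same sign in 25 of 27 such members that fell and in 10 of 12 that rose. These members were called on the sum of the same introns, so that agreement was partly built in. Members that did not pass more often had mixed signs, as MRPL13 (-0.28 to 0.23) and MRPL19 (-0.40 to 0.24). No share or range over all genes was computed. The 3 introns of MRPS25 ran from -1.62 to -1.22, the 8 of MRPL39 from -1.55 to -0.83, and the 3 of MRPL44 from 0.65 to 1.07. Introns of 1 gene share reads and libraries and are not replicates.

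MRPL22, a large-subunit protein that lines the exit tunnel, had the widest range of these 59 members. Its 4 introns ran from -0.73 to 0.19, a range of 0.92, and the gene as a whole did not pass (-0.17, SE 0.07). Ranges nearly as wide were seen in MRPL1 (0.90) and MRPS9 (0.82), with all introns lower. MRPL22 passed as lower on library totals (-0.35), without its most-read intron (-0.33) and in introns without an annotated exon (-0.73). It also passed as lower with a minimum of 10 CPM (-0.18) and with a replicate block (-0.17). Without H3B-8800 replicate 1 its change was -0.26. Intron 4 had 89 and 106 spliced reads against 171 and 217, while intron 1, in the 5′ UTR, had 161 and 148 against 157 and 171. MRPS30 ran from -0.19 to 0.38.

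**Figure D3:**
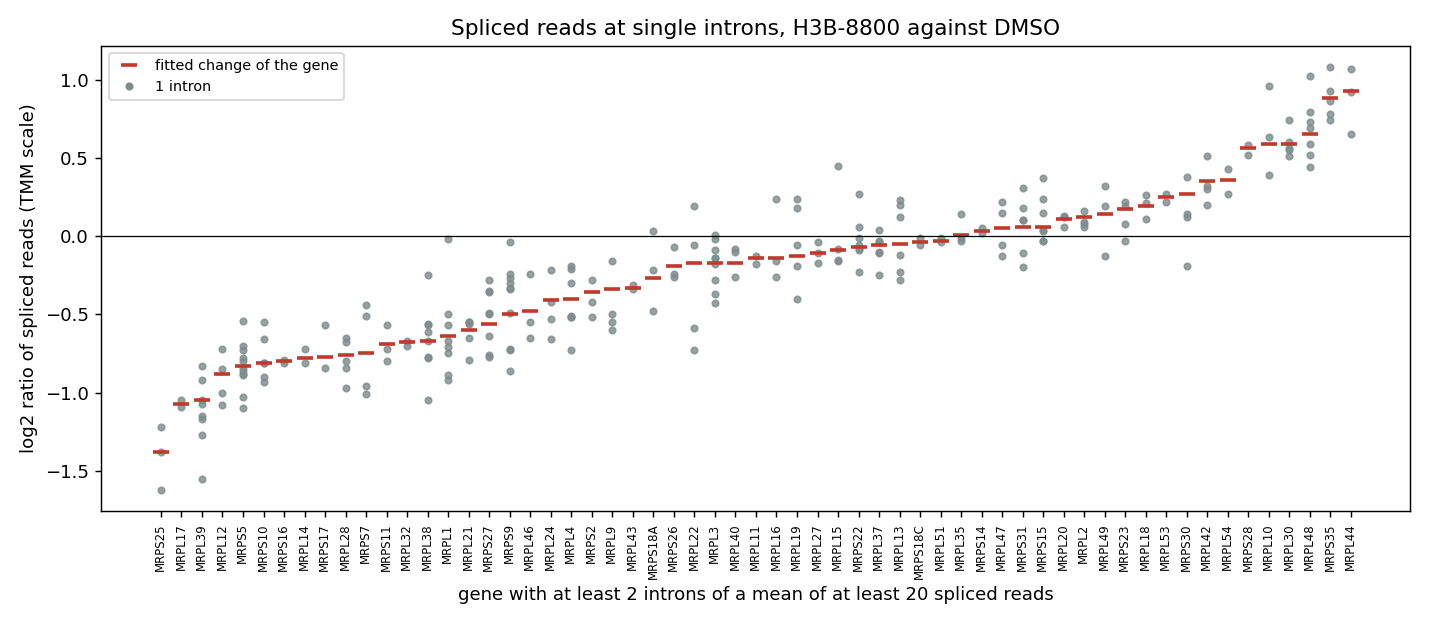
Log2 ratio of spliced reads, H3B-8800 against DMSO on the TMM scale (y axis), at each intron (grey points) of the 59 genes with at least 2 such introns (x axis, in the order of the gene's fitted change, red bars). The median range within a gene is 0.35, and the widest ranges are 0.92 in MRPL22 and 0.90 in MRPL1.

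The members' share of intronic reads was larger with H3B-8800. Summed over the 71 genes, the treated libraries had 3904 and 4340 intronic reads and the DMSO libraries 1896 and 1852. As a share of intronic plus spliced reads these were 5.52% and 5.68% against 1.91% and 1.89%, or 5.60% ± 0.11 against 1.90% ± 0.015 (SD, n = 2 each). The groups did not overlap, with a ratio of 2.95, and a two-sided exact permutation test of 2 libraries against 2 gave p = 0.333, the smallest it can give. Over all genes the share was 8.22% against 4.24%, a ratio of 1.94, so the members started lower. In percentage points the members' rise was no larger, at 3.70 against 3.98 over all genes. In introns without an annotated exon the members' share was 2.68% ± 0.23 against 0.735% ± 0.03 (SD, n = 2 each), a ratio of 3.65, against 2.53 over all genes. The rise there was 1.95 points, against 3.19 over all genes. Leaving out MRPL20, MRPS7, MRPL4, MRPL3 and MRPL42, the 5 members with the most intronic reads, gave 4.68% against 1.70%.

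The share depended on intron length. In member introns of up to 150 bp it was 4.26% ± 0.53 against 0.672% ± 0.012 (SD, n = 2 each). That is a ratio of 6.34, against 3.38 for such introns of all genes. It rests on 33 member introns with 373 and 497 intronic reads with H3B-8800. Of these reads, 78 and 97 lay in MRPL22 intron 1, which overlaps an annotated exon. The ratio was 3.02 for longer member introns up to 1000 bp, 3.56 from there to 3000 bp and 2.79 from there to 10000 bp. Over 10000 bp the members' share was 6.76% ± 0.55 against 5.33% ± 0.028 (SD, n = 2 each), a ratio of 1.27, and that of all genes was 1.19. In percentage points the members rose by 3.59 up to 150 bp and by 1.43 over 10000 bp. Over all genes these rises were 1.20 and 5.37. By position among the listed introns of a gene, the members' ratio was 2.70 in first introns, 3.13 in internal, 3.03 in last and 2.25 in single introns. Over all genes these ratios were 1.40, 2.01, 2.28 and 1.61. In percentage points the members rose by 4.84, 2.53, 5.55 and 2.23, against 2.41, 3.77, 5.89 and 3.93 over all genes.

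**Figure D4:**
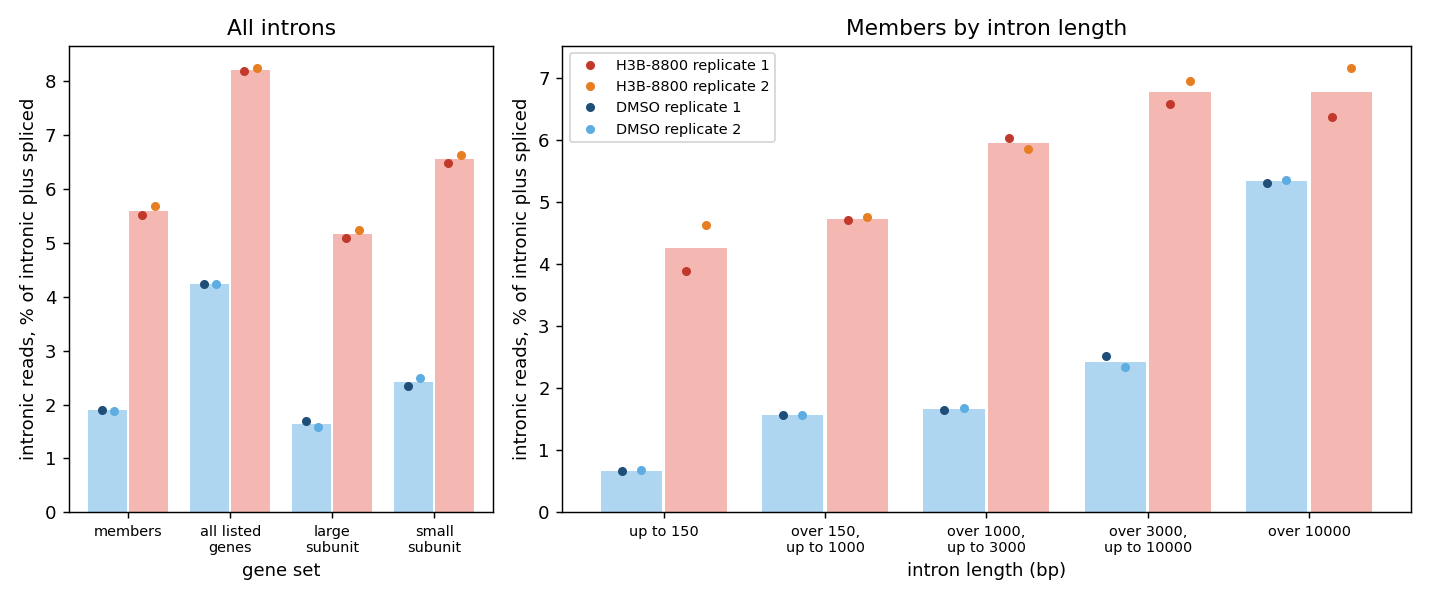
Intronic reads as a percent of intronic plus spliced reads (y axes) by gene set (left) and, for the 71 genes, by intron length in bp (right); bars are means of 2 libraries, starting at 0, and points are single libraries. The members stand at 5.60% with H3B-8800 against 1.90% with DMSO, and the difference is smallest in introns over 10000 bp, at 6.76% against 5.33%.

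Intron by intron, 72 member introns of 48 genes had a mean of at least 10 intronic reads. Scaled to library totals, intronic reads rose in 36 of them and fell in 1, where 48.2% of all 12013 introns tested rose and 5.74% fell (edgeR, Benjamini-Hochberg). Their median change was 1.24 over the members and 1.13 over all introns. In 57 of the 72, both H3B-8800 libraries had more intronic reads relative to the library total than both DMSO libraries, against 66% of all introns tested. The calls needed both H3B-8800 libraries, over the members and over all introns alike. Without H3B-8800 replicate 1 the median change was 1.15 over 68 member introns and 0.99 over all 11278 introns tested. Without H3B-8800 replicate 2 it was 0.98 over 64 member introns and 0.94 over all 10837 introns tested.

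The ratio of intronic to spliced reads within a library does not depend on the scaling between libraries. It rose in 50 of 72 member introns tested, in 32 genes, and fell in 2, with 20 not passed, where 56.5% of all 9937 introns tested rose and 2.88% fell (edgeR, Benjamini-Hochberg). Their median change was 1.83 over the members and 1.62 over all introns. By position among the listed introns, it rose in 11 of 18 first introns, 19 of 27 internal, 18 of 22 last and 2 of 5 single introns. Shares by position over all introns were not computed. Of the 72 introns tested, 54 overlap an annotated exon, and so do 36 of the 50 raised. Restricted to introns without such an exon, 14 of 18 rose and 0 fell, where 2012 of all 3229 such introns tested rose and 57 fell. In members with a bacterial counterpart 34 of 42 introns rose, with a median of 2.2, and in those without one 16 of 30, with a median of 1.48, and the difference was not tested.

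The spliced junctions of 4 of the 10 raised introns with the smallest adjusted p are shown because they are what a spliced read of these introns spans. The bases are those left after splicing, 25 on each side, taken from GENCODE release 29 transcripts, and capitals mark the 2 bases on either side of the junction.
MRPS7 intron 1: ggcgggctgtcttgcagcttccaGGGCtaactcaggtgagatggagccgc
MRPL12 intron 3: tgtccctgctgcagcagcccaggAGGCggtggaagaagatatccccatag
MRPL51 intron 1: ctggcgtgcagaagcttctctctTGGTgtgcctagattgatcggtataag
MRPL3 intron 8: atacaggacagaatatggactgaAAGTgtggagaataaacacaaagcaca

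MRPS7 encodes a protein of the small-subunit head with a bacterial counterpart. Its intron 1 (hg38 chr17:75261984-75262496, within the coding region) had 274 and 266 intronic reads with H3B-8800 against 60 and 62 with DMSO, and 254 and 318 spliced reads against 697 and 690. Intronic reads came to 107.9 and 83.6 per 100 spliced reads, against 8.61 and 8.99. They can lie anywhere in the 513 bp of the intron and spliced reads only at its junction, so these values are not shares of unspliced RNA. The ratio rose by 3.43 (SE 0.28; edgeR, Benjamini-Hochberg adjusted p = 3.06e-06). The same gene's intron 4 had 50 and 65 intronic reads against 30 and 33 (1.57, SE 0.33), and intron 2 had 0 in each library. The rise was therefore uneven along the gene. Annotated exons overlap intron 1 on both strands, and whether counting used the strand is not stated in the sources used here.

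MRPL12 intron 3 (hg38 chr17:81704717-81706905, within the coding region) overlaps no annotated exon. It had 111 and 90 intronic reads against 32 and 21, and 390 and 492 spliced reads against 1103 and 1130, and the ratio rose by 3.27 (SE 0.35; edgeR, Benjamini-Hochberg adjusted p = 1.87e-05). Introns 1 and 2 of this gene had 0 intronic reads in both H3B-8800 libraries, although their spliced reads were also lower, at 118 and 151 against 296 and 287 for intron 1.

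Some introns held intronic reads with H3B-8800 alone. MRPL51 intron 1 (hg38 chr12:6492973-6493057), 85 bp long, had 29 and 29 intronic reads against 0 and 0, at least 20.6-fold more relative to the library totals when 3 reads are allowed over the DMSO group. Its spliced reads were 756 and 818 against 938 and 1018, a log2 change of -0.04 once scaled by TMM, and it overlaps an annotated exon on its own strand. MRPL3 intron 8 (hg38 chr3:131468169-131469695), which overlaps no annotated exon, had 26 and 27 intronic reads against 0 and 0, at least 18.8-fold more. In all, 24 member introns had 0 reads in both DMSO libraries and more than 3 with H3B-8800, and 5 had the reverse. Over all 142206 introns, 5.78% had 0 DMSO reads and more than 3 with H3B-8800, and 1.4% the reverse. The fold bounds cover counting error only, and only if reads are independent. Mates of a pair were probably both counted, which makes these bounds too high.

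MRPL3, a large-subunit protein with a bacterial counterpart, also had a raised intron 4 (hg38 chr3:131490081-131498178), with 60 and 75 intronic reads against 13 and 4 (3.34, SE 0.42). Its intron 3 had 0 and 0 intronic reads against 2 and 0, and its intron 7 had 2 and 0 against 1 and 0. Over the gene, spliced reads were 410.1 and 403.5 CPM against 465.4 and 447.0 CPM, a fall of 0.17 (SE 0.04; adjusted p = 0.00502, edgeR with Benjamini-Hochberg). That small fall did not pass without H3B-8800 replicate 2 (-0.15), without the most-read intron (-0.10) or in introns without an annotated exon (-0.12).

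Other raised introns were spread over both subunits. MRPS2 intron 3 (hg38 chr9:135501974-135503541) had 81 and 72 intronic reads against 9 and 12 (3.40, SE 0.37) and overlaps annotated exons on both strands. MRPS30 intron 4 (hg38 chr5:44813283-44814912), the last listed for its gene, had 89 and 54 against 4 and 2 (4.65, SE 0.54). The spliced reads over it, not scaled, were 237 and 238 against 258 and 271. The H3B-8800 libraries held fewer spliced reads in all, 11605061 and 12536423 against 14240258 and 14194422. MRPL32 intron 2 (hg38 chr7:42935137-42937321), in a gene whose product the m-AAA protease matures, had 169 and 168 against 39 and 10 (3.77, SE 0.46). Introns 4 of MRPL3 and MRPS30 and intron 2 of MRPL32 each overlap an annotated exon on their own strand. The DMSO libraries of MRPL32 differed from each other, yet both lay far below the H3B-8800 libraries.

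The 5′ UTR of 2 large-subunit genes held a raised short intron. MRPL52 intron 1 (hg38 chr14:22830111-22830186), 76 bp long and its only listed intron, had 36 and 43 intronic reads against 7 and 2 (3.95, SE 0.49). MRPL22 intron 1 (hg38 chr5:154941139-154941216), 78 bp long, had 78 and 97 against 8 and 1 (4.33, SE 0.59). It overlaps an exon of another MRPL22 transcript. The other 3 introns of MRPL22 had at most 2 intronic reads in any library.

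**Figure D5:**
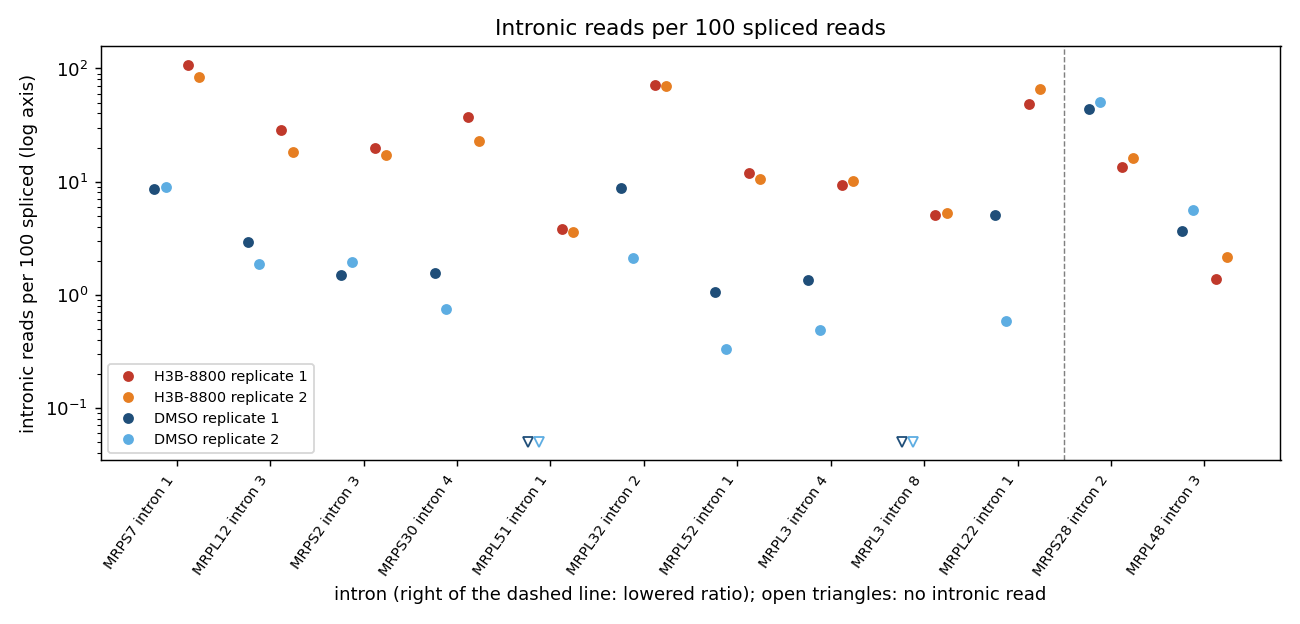
Intronic reads per 100 spliced reads (y axis, log scale) in each library for the 10 raised introns with the smallest adjusted p and, right of the dashed line, the 2 lowered ones (x axis); open triangles at the bottom stand for 0 intronic reads. MRPS7 intron 1 stands at 107.9 and 83.6 against 8.61 and 8.99, and MRPS28 intron 2 at 13.5 and 16.0 against 43.5 and 51.0.

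The ratio fell in 2 introns, both long and both in genes whose spliced reads rose. MRPS28 intron 2, of 83850 bp on chromosome 8, had 39 and 51 intronic reads with H3B-8800 against 107 and 124, and 288 and 319 spliced reads against 246 and 243. Its ratio fell by 1.67 (SE 0.31; edgeR, Benjamini-Hochberg adjusted p = 0.000829), and it overlaps annotated exons on both strands. It was also the member intron whose intronic reads fell. MRPL48 intron 3 (hg38 chr11:73808351-73825707), of 17357 bp, had 7 and 11 intronic reads against 17 and 25, and the ratio fell by 1.38 (SE 0.47; edgeR, Benjamini-Hochberg adjusted p = 0.0238). That call did not pass in DESeq2 (-1.39), nor in edgeR without H3B-8800 replicate 1 (-1.10), without H3B-8800 replicate 2 (-1.72) or without DMSO replicate 2 (-1.05).

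Summed over each gene, the ratio could be tested in 53 members and rose in 42. It fell in MRPS28 (-1.26, SE 0.27), and 10 did not pass, where 65.4% of all 7566 genes tested rose and 2.35% fell (edgeR, Benjamini-Hochberg). Their median change was 1.59 over the members and 1.35 over all genes. The 5 raised members with the smallest adjusted p were MRPL4 (3.09, SE 0.23), MRPS7 (2.85, SE 0.23), MRPL12 (3.0, SE 0.27), MRPS2 (3.12, SE 0.30) and MRPL3 (2.13, SE 0.22). The 18 members with too few reads of either kind were MRPL9, MRPL10, MRPL11, MRPL15, MRPL19, MRPL24, MRPL34, MRPL35, MRPL36, MRPL41, MRPL49, MRPL50, MRPL55, MRPL57, MRPS12, MRPS18A, MRPS18C and MRPS35.

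The ratio contains the spliced reads, so the 2 measures are not independent. Of 28 falling members with a tested ratio, 26 had a raised one, and MRPS16 (0.75, SE 0.45) and MRPL33 did not pass. Of all genes that fell, 86.4% had a raised ratio. Of 10 rising members 6 had a raised one, against 50.6% of all rising genes, and of 15 that did not pass 10 had, against 58.1%. The members' counts were not tested against these shares.

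The intronic reads themselves differed widely between members that fell. MRPS25 had 77 and 94 intronic reads against 65 and 86, 1.21-fold more relative to the library total, and its raised gene ratio (1.84, SE 0.28) went with spliced reads that fell 2.61-fold. In introns without an annotated exon that ratio change was also 1.84 but did not pass (edgeR, Benjamini-Hochberg adjusted p = 0.0506). MRPL39 likewise had 26 and 20 against 25 and 16, 1.20-fold more on that scale. MRPL12 had 3.87-fold and MRPS2 6.06-fold more. In MRPS16, with 19 and 12 intronic reads against 15 and 24, they were 0.855-fold.

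The opposite case was also seen. MRPS30 rose slightly in spliced reads, from 101.5 and 108.6 to 127.3 and 125.4 CPM, and had 104 and 66 intronic reads against 4 and 2. MRPL51 had 31 and 35 intronic reads against 2 and 0 with spliced reads that did not pass (-0.03, SE 0.06). MRPL44 had 18 and 18 intronic reads against 3 and 4 while its spliced reads rose, and its gene ratio rose by 1.66 (SE 0.55; edgeR, Benjamini-Hochberg adjusted p = 0.0135), but without DMSO replicate 1 it was 1.54 and did not pass.

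Promoters were looked at because genes of this set share sequence elements there and yet moved in both directions. RefSeq promoters of GRCh38.p14, from 250 bases before to 50 after the start of the gene, were matched for 64 of the 71 members. The letters CCGGAAG, a core of ETS-family binding sites, stood on either strand in 43.8% of member promoters against 10.3% of all 35116 promoters. AAGATGGC, a YY1 motif, stood in 26.6% against 2.89%. The palindromic NRF1 motif stood in 1.56% against 1.24%, and CCAAT in 31.2% against 34.6%. By the change of spliced reads, CCGGAAG was found in 37.5% of the 32 falling members matched, 45.5% of the 11 rising and 52.4% of the 21 that did not pass. For AAGATGGC these were 25%, 27.3% and 28.6%. The groups were not tested, and a match of letters is not a measured binding site. Each matched member had 1 promoter, while the 35116 were not restricted to expressed or protein-coding genes. Whether the motifs are more frequent here than in other expressed genes was not tested.

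The 250 bases before the start of 1 falling and 1 rising gene show these letters. MRPS34 (chr16:1773135-1773384, -) fell and MRPL48 (chr11:73787624-73787873, +) rose. Sequences are 5′ to 3′ on the strand of the gene, and capitals mark CTTCCGG, the reverse complement of CCGGAAG.
MRPS34: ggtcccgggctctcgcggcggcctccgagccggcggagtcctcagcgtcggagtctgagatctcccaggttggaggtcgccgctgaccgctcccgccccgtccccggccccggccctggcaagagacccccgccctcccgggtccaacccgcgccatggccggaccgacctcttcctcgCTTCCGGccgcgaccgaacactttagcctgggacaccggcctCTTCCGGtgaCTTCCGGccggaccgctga
MRPL48: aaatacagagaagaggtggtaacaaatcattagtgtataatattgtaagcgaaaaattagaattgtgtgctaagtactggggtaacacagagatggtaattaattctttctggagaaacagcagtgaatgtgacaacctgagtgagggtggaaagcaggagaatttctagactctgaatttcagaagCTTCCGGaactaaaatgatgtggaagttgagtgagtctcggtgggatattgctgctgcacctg

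The motif stood 3 times before MRPS34 and once before MRPL48. MRPL46 and MRPS11 are divergent neighbours on chromosome 15 whose promoter windows overlap. Both fell in spliced reads, MRPL46 by 0.48 (SE 0.13) and MRPS11 by 0.69 (SE 0.10), and both had a raised gene ratio, of 2.55 (SE 0.36) and 2.54 (SE 0.35). The change of MRPL46 in spliced reads was -0.31 without H3B-8800 replicate 2 and -0.24 in introns without an annotated exon, and passed in neither.

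Other genes of mitochondrial translation are given by list, and their counts stand beside 32.7% of all genes lower, 32.8% higher and 65.4% with a raised gene ratio. Of 6 mitoribosomal proteins under other names, 5 fell and 0 rose, and the ratio rose in all 6 (edgeR, Benjamini-Hochberg adjusted p under 0.05). PTCD3, a pentatricopeptide-repeat protein of the small subunit, had 81.8 and 83.1 CPM against 163.6 and 151.3 CPM and fell by 0.93 (SE 0.07). AURKAIP1 fell by 0.40 (SE 0.08), and ICT1, now named MRPL58 and outside the symbol rule by its older name, fell by 0.27 (SE 0.06).

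Of 16 translation factors tested, 8 (50%) fell and 3 (18.8%) rose. LRPPRC, which binds and stabilises mitochondrial mRNAs, fell by 0.69 (SE 0.06). MRRF, the ribosome recycling factor, rose by 1.10 (SE 0.10), and the initiation factor MTIF2 rose by 0.56 (SE 0.05). Of 17 genes for charging of mitochondrial tRNAs, 11 (64.7%) fell and 2 (11.8%) rose. RARS2, the arginyl-tRNA synthetase, fell by 0.95 (SE 0.07), CARS2, for cysteine, by 0.84 (SE 0.06) and LARS2, for leucine, by 1.00 (SE 0.11).

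Of 24 genes of ribosome assembly and rRNA modification, 8 (33.3%) fell and 7 (29.2%) rose, shares near those of all genes. MTG1, a GTPase of large-subunit assembly, fell by 1.47 (SE 0.11), METTL17 fell by 1.02 (SE 0.08), and GRSF1, an RNA-binding protein of mitochondrial RNA granules, rose by 0.57 (SE 0.05). Of 4 genes of mitochondrial transcription, 2 fell and 2 rose. The polymerase POLRMT fell by 0.75 (SE 0.09), and its partners TFB2M and TFAM rose by 0.94 (SE 0.09) and 0.51 (SE 0.08). The gene ratio rose in 10 of 14 translation factors (71.4%), 12 of 16 tRNA-charging genes (75%), 16 of 22 assembly genes (72.7%) and 3 of 3 transcription genes tested, against the 65.4% of all genes.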

How the data were processed

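Each deposited file listed the same introns, with 1 RefSeq transcript per gene, 2 counts and an RPKM value per intron, without a header. The submitters' processing notes list HISAT2 2.0.4, hg38 and mm10; how reads were counted is not given in these sources. The first count deposited by the authors was taken as intronic reads. The second count minus the first was taken as spliced reads, a reading inferred from the values. A read spanning several introns counts at each. Intronic reads can lie anywhere in an intron and spliced reads only at its junction, so the shares and ratios given are not fractions of unspliced RNA. The deposited RPKM is the first count per kb of intron and per library total, and the totals were recovered from it. Even numbers made up 70.9% to 72.3% of non-zero intronic counts, so mates were probably both counted, which makes reads dependent. A second count was lacking for 18 introns. Listed introns match GENCODE release 29 for 99.9%, after removing 1 flanking base at each end.

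Counts were tested with edgeR 4.0.16 (R 4.3.3), quasi-likelihood, over all features, with Benjamini-Hochberg adjustment and a threshold of 0.05. Spliced reads per gene needed a mean of at least 1 CPM and were scaled by TMM. Intronic reads per intron needed a mean of 10 and were scaled to library totals. The ratios were tested as an interaction of kind of read and treatment, with a term per library and a mean of 10 reads of each kind. The SE is the size of the change divided by the root of its F statistic. Nothing beyond the words on duplicates says how the 2 libraries of a group were made, so p-values measure the spread between these libraries, which may be technical. Same-group libraries differed by more than sampling noise (chi-square per degree of freedom 3.80 and 3.52).

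On simulated counts with only 200 changed features, far fewer than were called in these data, the test of spliced reads over 9468 genes recovered 71.6%, 86.6% and 98.5% of changes of 1.5-, 2- and 4-fold. For intronic reads over 12013 introns these were 0%, 7.46% and 69.7%, for the ratio over 9937 introns 0%, 8.96% and 47%, and for the ratio over 7566 genes 5.97%, 25.4% and 87.9%.

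The members and lists were chosen with earlier results of these data known. Named are the 10 largest rises and falls of spliced reads that passed and whose groups are apart, the 10 raised and up to 5 lowered introns and 5 raised genes with the smallest adjusted p, and 3 genes of each other list. Other genes and introns (MRPL53, MRPL43, MRPL46, MRPS11, MRPL20, MRPS23, those given for their level per intron, and further introns of named genes) were chosen after their values were seen. Mitochondrial ribosomal protein genes without an entry under the rule were not analysed here, except the 6 given under other names. DESeq2 1.42.0, other scalings, filters and sets of introns, a replicate block and leaving out each library were tried.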

Additional observations from a re-analysis of the deposited data

How the results depend on the processing

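Among members called in spliced reads, MRPS23 changed sign on library totals (from 0.17 to -0.01). That scale changed the sign of 10 of 71 members, MRPL20 among them (0.11 to -0.07), and leaving out the most-read intron that of 6 of 59, MRPL51 among them (-0.03 to 0.01). With TMM scaling of intronic reads 24 of 72 member introns changed sign, 2 of them called in the run reported (intron 4 of MRPS7 and intron 7 of MRPS5). In the other alternatives run, no member or member intron called in the run reported changed sign. With both H3B-8800 libraries needed, intronic reads per intron were higher in 0 to 38 member introns and lower in 0 to 2 when 1 library was left out, against 36 and 1. Over all introns, too, the calls needed both H3B-8800 libraries. TMM scaling of the intronic reads, which centres the general rise, gave 15 member introns higher and 8 lower. The falls of the ratio per intron numbered 1 to 2 without 1 library, 1 in DESeq2, 4 with a minimum of 5 reads, 1 with a minimum of 20, and 1 in introns without an exon on the opposite strand, against 2. Introns without any annotated exon gave fewer features to test, with 14 of 18 introns higher and 0 lower, and 15 of 19 genes higher and 0 lower. Over all features these were 2012 higher and 57 lower of 3229 introns, and 2535 higher and 45 lower of 3900 genes. Members higher in spliced reads were 8 of 71 on library totals and 8 of 59 without each gene's most-read intron, against 13 of 71. Over all genes these were 2230 of 9468 and 2813 of 8796, against 3102 of 9468. The cause was not tested. The members' difference in intronic share, 3.70 percentage points, was 1.95 in introns without an annotated exon and 2.98 without the 5 members with the most intronic reads. Over all genes it was 3.98, and 3.19 in introns without an annotated exon. Both alternatives for the share, and that on opposite-strand exons, were chosen after seeing the data.

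Replicate numbers are shared between the groups, and nothing states whether they pair the libraries. Deviations of same-numbered libraries from their group means correlated at 0.0489 over 9468 genes. With 2 libraries per group, a low correlation cannot decide whether they were paired. With a replicate block, 13 members were higher and 34 lower in spliced reads, 34 introns higher and 1 lower in intronic reads, 48 higher and 2 lower in the ratio per intron, and 42 higher and 1 lower in the ratio per gene. Over all features these were 3140 and 3144 of 9468 genes, and 5262 and 576 of 12013 introns. For the ratios they were 5311 and 232 of 9937 introns, and 5043 and 182 of 7566 genes. In the ratio per intron, 21 of 41 member introns with a change under 2 on the log2 scale passed, and 31 of 31 with a larger one.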
